A study of Mus musculus with 12 samples.

Results

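Glucose breakdown and the response to low oxygen were followed in MC38 tumors through 33 genes, picked by symbol from the 18211 genes of the expression table. Of these, 24 act in glucose uptake, glycolysis or the handling of pyruvate and lactate, 8 are targets of the hypoxia-inducible factors (HIF), and the last is Hif1a itself. All 33 were in the table, and all 33 passed the filter on low counts. They and the marker lists below were chosen with earlier results of these data known. Shares of all genes set beside their counts therefore describe these genes and do not test them as a set. MC38 is a mouse colorectal adenocarcinoma cell line, and here it formed tumors under the skin of female C57BL/6 mice aged 5 weeks, so that reads of tumor cells and host cells map to the same genome. The 12 sequenced tumors fell into 4 groups of 3. CK mice received the vehicle alone. PB-020 mice received PB-020, an inhibitor of the growth factor receptor IGF-1R, by mouth at 50 mg/kg per day. Anti-PD-1 mice received an antibody against the T cell receptor PD-1 at 200 μg per mouse on days 9, 12, 15 and 18. PB-020+anti-PD-1 mice, called the combination here, received both. Treatments began after the mice had been divided on day 7. All groups shared the cell line, strain, sex and age. Tumor size differed: in the final volumes that the paper lists, every combination tumor and most anti-PD-1 tumors were smaller than every CK tumor. The part of tumor size in the results below was not tested and cannot be told apart from treatment.

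Glycolysis splits glucose into pyruvate in the cytosol. Slc2a1 and Slc2a3 encode the glucose carriers GLUT1 and GLUT3, hexokinase traps glucose in the cell, and phosphofructokinase sets the committed step. Lactate dehydrogenase turns pyruvate into lactate, which leaves through monocarboxylate carriers. Pdk1 holds pyruvate back from oxidation in the mitochondrion by inactivating pyruvate dehydrogenase. When oxygen falls, prolyl hydroxylases such as Egln3 stop marking HIF-1α for destruction. The stabilized factor then binds short sites with the core ACGTG or GCGTG and raises many glycolytic genes together with Bnip3, Car9, Ankrd37, Ndrg1, Adm, P4ha1 and P4ha2. Tumor cells and activated T cells are both known for high glycolysis, and a tumor lysate holds both.

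The promoters of these genes show the letters that the HIF core calls for. In RefSeq windows of GRCm38.p6 that run from 250 bases before to 50 bases after a start site, 31 of the 33 genes had at least 1 window, and these genes had 44 windows in all. Ndrg1 and Slc2a3 had none. ACGTG or GCGTG, read on both strands, occurred in 81.8% of the 44 windows and in 43.8% of all 32851 windows of the same 300 bases. ACGTG alone occurred in 54.5% against 19.6%. An ACGTG match can also be part of the palindrome CACGTG, which other factors bind. Among the 7 hypoxia targets with a window, 7 held a match. Windows of genes that were later called higher than CK held a match to either core in 84.6% of cases, and windows of the other genes in 80.6%. ACGTG alone occurred in 69.2% of the 13 windows of called genes and in 48.4% of the 31 others. Neither difference was tested. A match is a description of the sequence, and no binding was measured. The windows below belong to the glucose carrier Slc2a1, the glycolytic enzyme Pgk1 and the hypoxia targets Bnip3 and Ankrd37, all called higher in at least 1 comparison, and to the enzymes Ldha and Gpi1, which were not called. The window of Ldha, the first of its pair, held matches and that of Gpi1 none, and the window of Tpi1, which was called higher, held none either. Each is written 5′ to 3′ on the strand of its gene, with matches on either strand in capitals.
Slc2a1, chr4:119108495-119108794, plus strand: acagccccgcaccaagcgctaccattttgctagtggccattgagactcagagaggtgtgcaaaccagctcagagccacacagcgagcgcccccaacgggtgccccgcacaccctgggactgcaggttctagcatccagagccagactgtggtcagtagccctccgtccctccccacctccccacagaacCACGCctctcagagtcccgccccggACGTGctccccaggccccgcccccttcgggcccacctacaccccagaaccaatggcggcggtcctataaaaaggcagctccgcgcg
Pgk1, chrX:106186850-106187149, plus strand: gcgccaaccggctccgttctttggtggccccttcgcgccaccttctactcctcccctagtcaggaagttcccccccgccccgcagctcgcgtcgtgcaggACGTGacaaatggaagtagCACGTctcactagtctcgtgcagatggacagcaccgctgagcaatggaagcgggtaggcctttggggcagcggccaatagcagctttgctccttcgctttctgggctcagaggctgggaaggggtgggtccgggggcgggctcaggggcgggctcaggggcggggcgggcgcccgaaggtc
Bnip3, chr7:138909457-138909756, minus strand: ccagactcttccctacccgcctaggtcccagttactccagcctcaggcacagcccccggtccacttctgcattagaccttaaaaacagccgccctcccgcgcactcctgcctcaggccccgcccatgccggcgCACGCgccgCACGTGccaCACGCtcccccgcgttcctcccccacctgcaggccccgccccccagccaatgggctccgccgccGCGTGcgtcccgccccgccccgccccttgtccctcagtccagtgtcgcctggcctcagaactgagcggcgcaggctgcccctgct
Ankrd37, chr8:45999801-46000100, minus strand: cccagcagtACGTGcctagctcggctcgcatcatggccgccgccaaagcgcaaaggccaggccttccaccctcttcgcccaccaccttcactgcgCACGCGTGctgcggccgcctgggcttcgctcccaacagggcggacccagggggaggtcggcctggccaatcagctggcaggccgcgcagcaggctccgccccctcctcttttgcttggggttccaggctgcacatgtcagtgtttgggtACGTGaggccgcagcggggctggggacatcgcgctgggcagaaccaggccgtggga
Ldha, chr7:46845554-46845853, plus strand: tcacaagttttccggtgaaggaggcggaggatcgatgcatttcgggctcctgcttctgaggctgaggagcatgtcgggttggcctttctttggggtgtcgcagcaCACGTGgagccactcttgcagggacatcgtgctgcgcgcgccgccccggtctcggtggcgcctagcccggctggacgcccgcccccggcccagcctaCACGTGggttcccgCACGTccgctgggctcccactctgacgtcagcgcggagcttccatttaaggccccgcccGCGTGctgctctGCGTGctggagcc
Gpi1, chr7:34230287-34230586, minus strand: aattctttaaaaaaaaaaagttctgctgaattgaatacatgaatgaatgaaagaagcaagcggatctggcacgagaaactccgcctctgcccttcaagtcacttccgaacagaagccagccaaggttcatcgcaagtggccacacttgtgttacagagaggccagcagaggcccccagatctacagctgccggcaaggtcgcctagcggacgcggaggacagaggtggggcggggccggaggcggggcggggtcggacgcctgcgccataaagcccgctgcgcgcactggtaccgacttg

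Library totals, as sums of expected counts, lay between 16545394 and 17217035, so depth hardly differed. Of the 33 genes, 28 had whole expected counts in every tumor, while Gpi1, Pfkm, Pfkp, Gapdh and Eno1 had fractional counts, which means that some of their reads were divided among similar sequences. A pair of tumors stood apart. In anti-PD-1 tumor 1, the summed level of 12 skeletal muscle markers was 714.8 FPKM, against 14.2 to 77.7 FPKM in the other 11, and its 11 T cell markers summed to the highest value, 82.7 FPKM. Its 8 macrophage markers summed to 1380 FPKM, against 752.6 to 1029 FPKM in the other 11, and this tumor also held the highest values of Slc2a1, Hk1, Hk2, Pfkl, Pfkp and Hif1a. In CK tumor 3, 7 neutrophil markers summed to 417 FPKM, against 8.3 to 38.6 FPKM in the other 11. Of all genes tested, 4.18% were called higher and 4.08% lower than CK in anti-PD-1, and 8.35% and 9.60% in the combination. T cell markers were called higher than CK for 8 of 11 in anti-PD-1 and 9 of 11 in the combination. Proliferation markers were higher for 2 of 8 and 5 of 8, erythroid markers lower for 5 of 5 tested in both, and fibroblast markers lower for 4 of 7 in both. The other 3 fibroblast markers, Col1a1, Col1a2 and Lum, were not called and had positive log2 changes of 0.32 to 1.69. Of the 8 epithelial markers that a colon carcinoma could hold, 1 passed the filter, Cdh1 at 1.6 to 4.0 FPKM, while Cdx2, Krt18 and Vil1 lay at or near 0 in every tumor. The part of these shifts in the results below was not tested, and in bulk tumors more cells of a type and more RNA per cell cannot be told apart. Nothing in the sources ties tumors of different groups to each other, and each tumor was treated as 1 replicate.

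Levels per transcript length, in FPKM, spanned more than 3 orders of magnitude in the vehicle group. Gapdh was the most abundant at 3613 ± 268 (SD, n = 3), followed by Eno1 at 1827 ± 236, Pkm at 1296 ± 147, Ldha at 927 ± 88.3 and Aldoa at 734 ± 93.0. The glucose carrier Slc2a1 stood at 66.5 ± 1.46, and the hexokinases at 39.9 ± 3.36 for Hk1 and 10.2 ± 0.776 for Hk2. Phosphofructokinase transcripts ranged from 41.6 ± 3.21 for Pfkl to 16.6 ± 0.459 for Pfkm. The enzymes from Aldoa to Ldha were thus far more abundant than the carrier and the kinases at the head of the pathway. Among hypoxia targets, Ndrg1 (192 ± 23.2), Bnip3 (136 ± 18.4) and P4ha1 (98.0 ± 12.7) were the most abundant, whereas Car9 (7.98 ± 1.32) and Adm (3.61 ± 1.31) were low. Hif1a was at 41.1 ± 3.59. Slc2a3, Ldhb, Aldoc and Eno2 were at most 3.01 FPKM in each CK tumor. Eno3, the muscle enolase, which is outside the 33 genes and named after its values were seen, was at 63.5 ± 5.10 FPKM in CK. Slc2a1 made up 98.5% ± 0.88 (SD, n = 3) of the Slc2a1 and Slc2a3 transcripts, and Ldha 99.8% ± 0.052 of the Ldha and Ldhb transcripts.

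**Figure D1:**
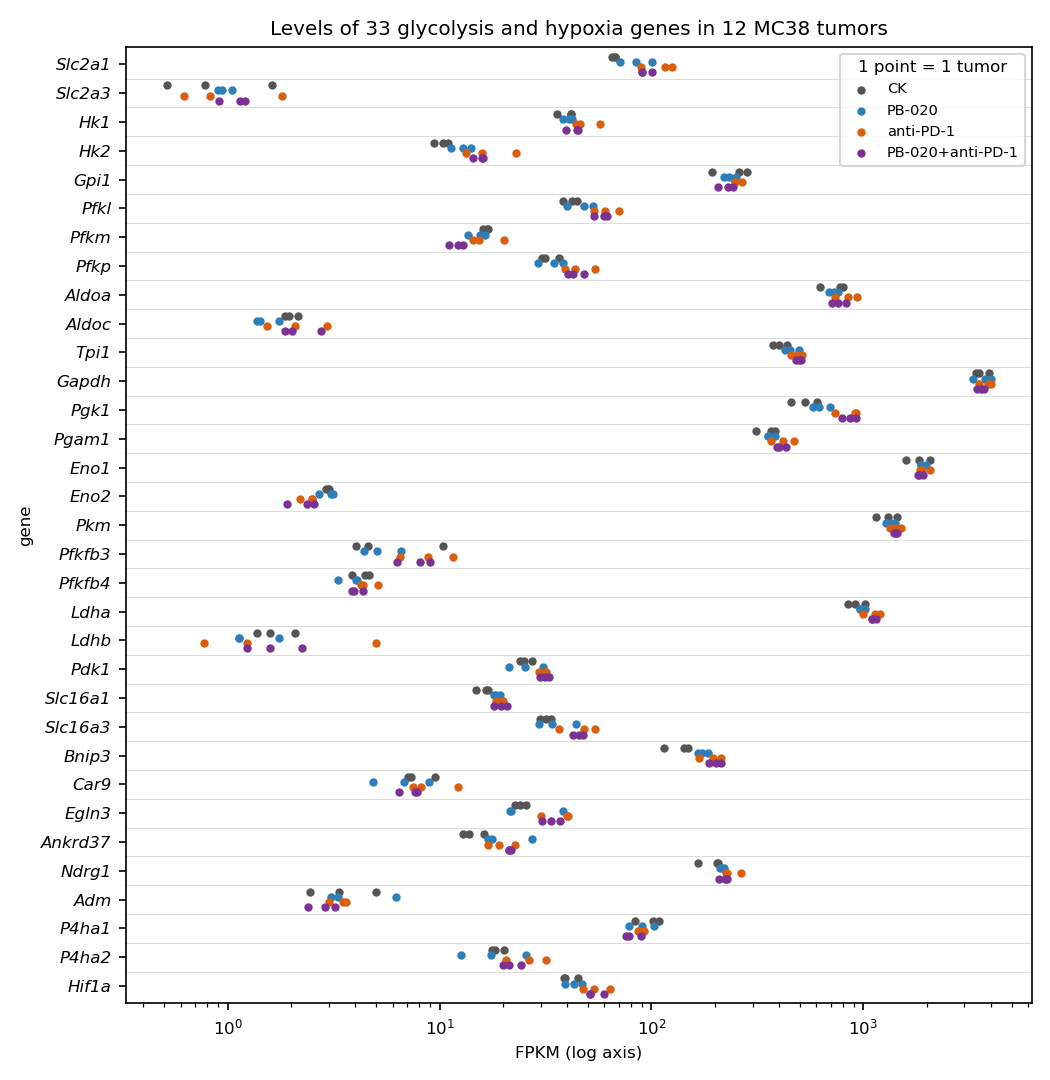
FPKM of the 33 genes on a log axis, with 1 point per tumor and 1 color per group. Gapdh, Eno1 and Pkm lie highest and Slc2a3 lowest, and the anti-PD-1 and combination points lie to the right of CK in rows such as Slc2a1, Pgk1 and Bnip3.

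Against CK, a gene was called when its adjusted p in edgeR's quasi-likelihood test, corrected over 13563 genes, was under 0.05. Under PB-020 alone 0 of the 33 were called, as were 0% of all genes, with 6 of 33 at an unadjusted p under 0.05, all on the higher side, against 3.12% of all genes on that side. DESeq2 and limma also called 0 of the 33, where DESeq2 called 6 of 13542 genes in all and limma 0. Under anti-PD-1 alone 11 of 33 rose and 0 fell, where 4.18% of all genes tested rose and 4.08% fell. In the combination 11 of 33 rose and 1 fell, where 8.35% of all genes rose and 9.60% fell. The median log2 change over the 33 genes was 0.06 under PB-020, 0.29 under anti-PD-1 and 0.22 in the combination, and the median over all genes tested lay between -0.0038 and 0.00047 in each. These 3 comparisons share the CK tumors, so they are not independent of each other. By FPKM, all 3 anti-PD-1 tumors lay above all 3 CK tumors for 16 of the 33 genes, against 11.8% of all genes, and all 3 combination tumors did so for 16, against 17.9%. For PB-020 the count was 6, against 6.19%. Of the 33 genes, 14 were called in at least 1 of the 3 comparisons, a measure for which no share of all genes was counted.

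The count under anti-PD-1 varied widely between fits. When only the CK and anti-PD-1 tumors were fitted, 0 of the 33 genes and 3 of 13255 genes in all were called. Without anti-PD-1 tumor 3 the count was 2, where 1.73% of all genes were called, and without CK tumor 2 it was 3, against 0.996%. Without anti-PD-1 tumor 1, the one with muscle transcripts, it was 5, against 4.57%. It was 13 without anti-PD-1 tumor 2, against 13.8% of all genes. Without CK tumor 1, CK tumor 3, PB-020 tumor 3, combination tumor 2 or combination tumor 3 it was 7, against 4.65% to 6.9%. Without CK tumor 3 and anti-PD-1 tumor 1 together it was 3, among 459 genes called in all. In the combination the count of 12 went to 3 without CK tumor 2 or combination tumor 1, against 6.28% and 7.89% of all genes. It went to 6 without CK tumor 3, against 11.5%. A rule of a fold over 1.5 with an unadjusted p under 0.05 gave 4 genes under anti-PD-1 and 3 in the combination. The share of all genes was not counted under that rule. Apart from that rule there were 21 other fits of each called change, judged at an adjusted p of 0.05, and the counts out of 21 given below refer to these. None of the called changes turned its direction in any of the 21.

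**Figure D2:**
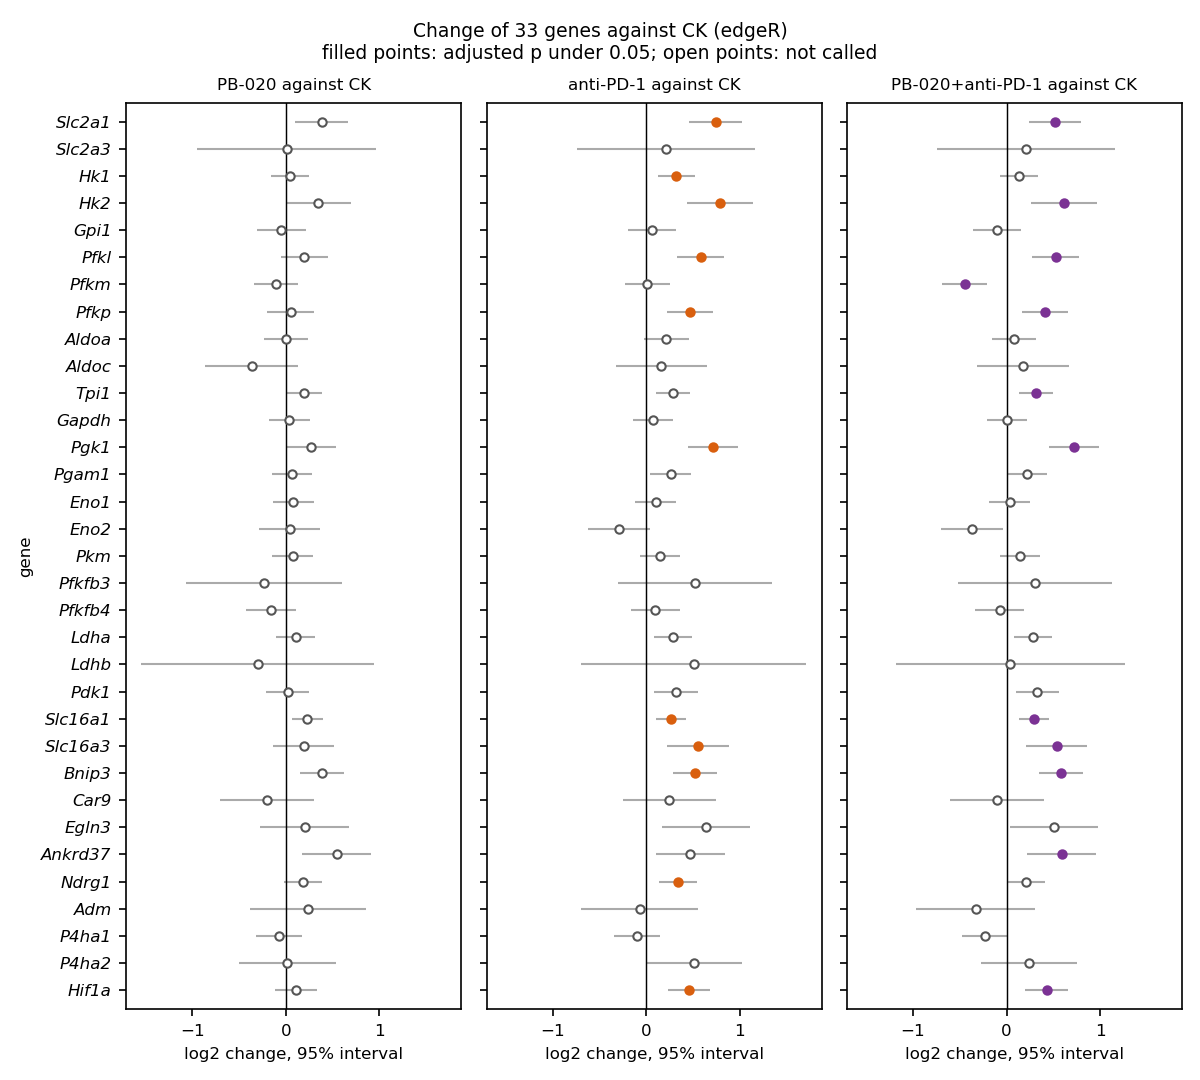
The log2 change of each gene against CK with its 95% interval, 1 panel per treated group. Filled points passed an adjusted p of 0.05, 0 under PB-020, 11 under anti-PD-1 and 12 in the combination, where Pfkm is the point to the left of 0.

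Of the glucose carriers, Slc2a1 rose. Its levels were 67.5, 67.1 and 64.8 FPKM in the CK tumors (chr4:119108745-119137330), 84.5, 100.4 and 71.0 in PB-020, 124.5, 88.8 and 115.4 in anti-PD-1, and 90.4, 89.9 and 100.9 in the combination. Every treated tumor lay above every CK tumor, and the anti-PD-1 and combination tumors overlapped each other. Slc2a1 rose by 0.74 ± 0.13 (log2, SE; adjusted p = 0.0094) under anti-PD-1 and by 0.51 ± 0.13 (adjusted p = 0.018) in the combination, and its change under PB-020 was 0.38 ± 0.13 (adjusted p = 0.87). The anti-PD-1 call held without any single library and was lost, at an adjusted p of 0.062, without CK tumor 3 and anti-PD-1 tumor 1 together. The combination call was lost without CK tumor 2, CK tumor 3, combination tumor 1 or combination tumor 3, at adjusted p values of 0.051 to 0.065. Slc2a3, the carrier typical of neurons and of blood cells, stayed near 1 FPKM and was not called. Its highest CK value, 1.62 FPKM, was in the tumor with neutrophil transcripts, 2.49 times the mean of the other CK tumors.

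The hexokinases, which phosphorylate glucose, both rose under anti-PD-1. Hk2 (chr6:82725025-82774454), the inducible form, was at 10.9, 9.38 and 10.4 FPKM in CK, 12.9, 14.1 and 11.3 in PB-020, 22.9, 13.4 and 15.9 in anti-PD-1, and 15.8, 14.4 and 16.1 in the combination. All treated tumors again exceeded the CK tumors, and the highest value, 22.9 FPKM, was that of the tumor with muscle transcripts. Hk2 rose by 0.78 ± 0.16 (adjusted p = 0.018) under anti-PD-1 and by 0.61 ± 0.16 (adjusted p = 0.024) in the combination. Without anti-PD-1 tumor 1 the first change was 0.55 and still called (adjusted p = 0.012). It was lost without CK tumor 2 (adjusted p = 0.084) and without anti-PD-1 tumor 3, and the combination call without CK tumor 2, CK tumor 3, combination tumor 1 or combination tumor 3 (adjusted p between 0.060 and 0.097). Hk1 (chr10:62268855-62379920), the form found in most tissues, stood at 41.9, 41.7 and 36.0 FPKM in CK, 40.9, 42.0 and 38.3 in PB-020, 57.0, 44.1 and 46.2 in anti-PD-1, and 44.6, 39.6 and 45.2 in the combination. It rose by 0.32 ± 0.09 under anti-PD-1 (adjusted p = 0.049), but 18 of 21 alternative fits lost that call, and the change without CK tumor 3 and anti-PD-1 tumor 1 was 0.14. In the combination its change was 0.13 ± 0.09 (adjusted p = 0.34). As a share of Hk1 and Hk2 together, Hk2 made up 20.5% ± 2.0 in the vehicle group, 24.0% ± 1.2 under PB-020, 25.8% ± 2.7 under anti-PD-1 and 26.4% ± 0.22 when both were given (SD, n = 3). Hk3, a further hexokinase outside the 33 genes that is named here after its values were seen, had mean levels of 6.72, 6.16, 12.3 and 10.7 FPKM in the same order and was not called (adjusted p = 0.13 under anti-PD-1 and 0.18 in the combination).

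Phosphofructokinase has 3 isoforms, and in the combination 2 rose and 1 fell. Pfkl (chr10:77986947-78009807), the liver form, was at 42.2, 44.5 and 38.2 FPKM in CK, 47.9, 53.0 and 39.9 in PB-020, 70.1, 53.6 and 60.6 in anti-PD-1, and 59.9, 53.5 and 61.7 in the combination. It rose by 0.58 ± 0.12 (adjusted p = 0.013) and 0.53 ± 0.12 (adjusted p = 0.010) in the latter groups, with no overlap with CK, while PB-020 tumors overlapped CK. The combination call held in 21 of 21 other fits, although its fold of 1.44 is under 1.5, and the anti-PD-1 call was lost without anti-PD-1 tumor 3 and, at an adjusted p of 0.074, without CK tumor 3 and anti-PD-1 tumor 1. Pfkp (chr13:6579874-6649060), the platelet form, read 36.6, 31.5 and 30.4 FPKM in CK, 34.8, 38.1 and 29.1 in PB-020, 54.0, 39.2 and 43.6 in anti-PD-1, and 47.9, 40.4 and 42.8 in the combination. It rose by 0.47 ± 0.11 (adjusted p = 0.029) and 0.41 ± 0.11 (adjusted p = 0.027). The first call was lost without CK tumor 2, CK tumor 3, anti-PD-1 tumor 1 or anti-PD-1 tumor 3 (adjusted p between 0.071 and 0.11). In all, 15 of the 21 other fits kept it, and the highest adjusted p among the 21 was 0.157. The second call was lost without CK tumor 2, CK tumor 3 or combination tumor 1 (0.081 to 0.11).

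Pfkm (chr15:98092589-98132447), the muscle form, went the other way. Its levels were 16.1, 16.8 and 17.0 FPKM in CK, 16.5, 15.6 and 13.6 in PB-020, 20.2, 15.3 and 14.4 in anti-PD-1, and 11.0, 12.2 and 12.9 in the combination. All combination tumors lay below all 9 others. Pfkm fell by 0.45 on the log2 scale (SE 0.11; adjusted p = 0.016) in the combination and was the one member called lower than CK. That call was lost without CK tumor 2 (adjusted p = 0.059) or combination tumor 1 (adjusted p = 0.072) and held in 19 of the 21 other fits. Under anti-PD-1 its change was 0.01 ± 0.11 (adjusted p = 0.95), where the highest value was again in the tumor with muscle transcripts. As a share of phosphofructokinase transcripts, Pfkm made up 18.3% ± 1.4 in the vehicle group, 15.9% ± 1.1 under PB-020, 13.4% ± 1.1 under anti-PD-1 and 10.6% ± 1.1 when both were given. In the same order Pfkl made up 45.7% ± 1.9, 48.8% ± 0.80, 49.8% ± 1.3 and 51.1% ± 1.2 (SD, n = 3). These shares are given without a test, and some reads of Pfkm and Pfkp were divided among similar sequences.

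Of the remaining enzymes, Pgk1 and Tpi1 were called. Pgk1 (chrX:106187100-106203699), which makes the first ATP of the pathway, was at 602.5, 531.4 and 453.6 FPKM in CK, 580.4, 694.6 and 616.6 in PB-020, 926.1, 733.3 and 915.6 in anti-PD-1, and 927.0, 863.6 and 793.4 in the combination. Anti-PD-1 and combination tumors exceeded all CK and all PB-020 tumors. Pgk1 rose by 0.72 ± 0.12 in both (adjusted p = 0.0084 and 0.0036). The combination call held in 21 of 21 other fits and the anti-PD-1 call in 20, being lost only when the other groups were left out of the fit (adjusted p = 0.060). Tpi1 (chr6:124810586-124814158), triose phosphate isomerase, was at 438.3, 401.2 and 375.1 FPKM in CK, 449.5, 496.2 and 427.4 in PB-020, 488.4, 456.8 and 514.1 in anti-PD-1, and 498.8, 509.2 and 482.6 in the combination. It rose by 0.31 ± 0.09 (adjusted p = 0.025) in the combination, a call lost without CK tumor 2, CK tumor 3, combination tumor 1 or combination tumor 2 (adjusted p between 0.073 and 0.089). Under anti-PD-1 the change was 0.29 ± 0.09 (adjusted p = 0.055), with all 3 tumors above CK.

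The most abundant enzymes gave no call. Gapdh changed by 0.07 ± 0.10 under anti-PD-1 and by 0.00 ± 0.10 in the combination (adjusted p = 0.68 and 0.99), with a 95% interval of -0.21 to 0.22 in the latter. For Eno1 the values were 0.10 ± 0.10 and 0.03 ± 0.10, for Pkm 0.15 ± 0.10 and 0.14 ± 0.10, for Aldoa 0.22 ± 0.11 and 0.08 ± 0.11, for Pgam1 0.26 ± 0.10 and 0.22 ± 0.10, and for Gpi1 0.06 ± 0.12 and -0.10 ± 0.12. Pgk1 was thus called and its neighbors Gapdh and Pgam1 were not, but no test compared these genes with each other. The unadjusted p of Pgam1 was 0.021 under anti-PD-1 and 0.043 in the combination, whose tumors all lay above CK. The neuronal enolase Eno2, at most 3.13 FPKM in any tumor, had changes of -0.29 ± 0.15 and -0.37 ± 0.15 (adjusted p = 0.24 and 0.11), and all its anti-PD-1 and combination tumors lay below CK. Counted over the 15 enzymes, 5 rose and 0 fell under anti-PD-1, where 4.18% of all genes rose and 4.08% fell. In the combination 5 rose and 1 fell, where 8.35% of all genes rose and 9.60% fell. The median log2 changes of the enzymes were 0.22 and 0.14. Without CK tumor 3 these medians were 0.11 and 0.06, and without CK tumor 3 and anti-PD-1 tumor 1 together the anti-PD-1 median was 0.07.

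The regulators Pfkfb3 and Pfkfb4, which set the level of fructose 2,6-bisphosphate, the activator of phosphofructokinase, were not called in any comparison. Pfkfb3 was at 4.61, 4.02 and 10.4 FPKM in CK, and the third value, that of the tumor with neutrophil transcripts, was 2.41 times the mean of the other CK tumors. The 95% interval of its change under anti-PD-1 was wide, from -0.30 to 1.34.

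Both lactate carriers rose under anti-PD-1 and in the combination. Slc16a1 (chr3:104638664-104658462), the carrier MCT1, stood at 17.0, 16.5 and 14.9 FPKM in CK, 18.1, 19.4 and 18.5 in PB-020, 18.5, 18.9 and 20.03 in anti-PD-1, and 20.9, 18.02 and 19.6 in the combination. All treated tumors lay above all CK tumors. Slc16a1 rose by 0.26 ± 0.07 (adjusted p = 0.045) under anti-PD-1 and by 0.29 ± 0.07 (adjusted p = 0.019) in the combination. Slc16a3 (chr11:120948484-120959000), the carrier MCT4 typical of glycolytic cells, was at 33.6, 29.9 and 31.7 FPKM in CK, 29.5, 44.0 and 34.0 in PB-020, 54.3, 36.5 and 47.9 in anti-PD-1, and 45.6, 42.7 and 47.7 in the combination. It rose by 0.55 ± 0.15 (adjusted p = 0.045) and 0.53 ± 0.15 (adjusted p = 0.032). Under anti-PD-1 both calls were fragile, and 4 of 21 alternatives kept that of Slc16a1 and 5 of 21 that of Slc16a3. In the combination Slc16a1 was lost without CK tumor 2, CK tumor 3 or combination tumor 1 (adjusted p between 0.057 and 0.087), and Slc16a3 without CK tumor 2, CK tumor 3 or any of the combination tumors (0.064 to 0.11).

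Ldha (chr7:46842274-46855627), the main lactate dehydrogenase, was at 1022, 910.6 and 847.6 FPKM in CK, 960.7, 1021 and 964.7 in PB-020, 1134, 996.8 and 1204 in anti-PD-1, and 1092, 1143 and 1103 in the combination. Its combination tumors all lay above CK, but with changes of 0.28 ± 0.10 in both (adjusted p = 0.079 and 0.055) it was not called. Pdk1 was close to the threshold as well, at 0.32 ± 0.11 (adjusted p = 0.080) under anti-PD-1 and 0.33 ± 0.11 (adjusted p = 0.051) in the combination. Ldhb, which favors the return of lactate to pyruvate, was at 5.03 FPKM in the anti-PD-1 tumor with muscle transcripts and at 0.77 to 2.24 FPKM in the other 11. Over these 5 pyruvate and lactate genes, 2 rose in each of the comparisons and 0 fell. Of all genes, 4.18% rose and 4.08% fell under anti-PD-1, and 8.35% rose and 9.60% fell in the combination.

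The 8 hypoxia targets split between called and uncalled genes. Bnip3 (chr7:138890836-138909506), which marks mitochondria for removal, was at 149.0, 143.1 and 114.6 FPKM in CK, 173.0, 184.3 and 165.5 in PB-020, 194.2, 168.1 and 213.3 in anti-PD-1, and 201.0, 212.9 and 186.2 in the combination. All 9 treated tumors exceeded the CK tumors. Bnip3 rose by 0.52 ± 0.11 (adjusted p = 0.016) under anti-PD-1 and by 0.58 ± 0.11 (adjusted p = 0.0051) in the combination, and under PB-020 its change was 0.38 ± 0.11 (adjusted p = 0.87, unadjusted p = 0.0038), the smallest unadjusted p of the 33 genes there. The combination call held in 21 of 21 other fits, although its fold of 1.49 is under 1.5. The anti-PD-1 call was lost without CK tumor 2 (adjusted p = 0.056), without anti-PD-1 tumor 3 (adjusted p = 0.072), and without CK tumor 3 and anti-PD-1 tumor 1 together (adjusted p = 0.053).

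Ankrd37 (chr8:45996908-46000414), a small ankyrin-repeat protein, was at 16.3, 12.9 and 13.7 FPKM in CK, 16.9, 27.3 and 17.7 in PB-020, 19.1, 17.0 and 22.8 in anti-PD-1, and 21.3, 21.8 and 21.2 in the combination. It rose by 0.59 ± 0.17 (adjusted p = 0.032) in the combination, a call lost without CK tumor 2, CK tumor 3 or any combination tumor (adjusted p between 0.063 and 0.13). Its changes of 0.47 ± 0.17 under anti-PD-1 (adjusted p = 0.10) and 0.54 ± 0.17 under PB-020 (adjusted p = 0.87) were not called. Ndrg1 (chr15:66929318-66969641), a stress-responsive protein, was at 204.6, 206.1 and 165.2 FPKM in CK, 220.5, 214.5 and 211.5 in PB-020, 266.0, 224.2 and 227.3 in anti-PD-1, and 222.3, 207.5 and 227.0 in the combination. It rose by 0.33 ± 0.09 (adjusted p = 0.045) under anti-PD-1, which 4 of 21 alternatives kept, and its change in the combination was 0.21 ± 0.09 (adjusted p = 0.14). For both genes every treated tumor lay above every CK tumor.

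Other defining targets were not called. Car9 (chr4:43507026-43513729), the membrane carbonic anhydrase often read as a hypoxia marker, was at 7.34, 9.49 and 7.10 FPKM in CK, 6.77, 8.92 and 4.85 in PB-020, 12.3, 7.48 and 8.22 in anti-PD-1, and 6.46, 7.86 and 7.68 in the combination. All its groups overlapped, and the 95% interval of its log2 change was -0.25 to 0.74 under anti-PD-1 and -0.60 to 0.40 in the combination. Egln3 (chr12:54178981-54203874), an oxygen sensor that HIF itself induces, was at 24.0, 22.6 and 25.5 FPKM in CK, 21.5, 38.4 and 21.7 in PB-020, 40.2, 30.1 and 40.5 in anti-PD-1, and 30.5, 33.5 and 37.0 in the combination. Its anti-PD-1 and combination tumors all exceeded CK, with changes of 0.64 ± 0.21 (adjusted p = 0.091) and 0.51 ± 0.21 (adjusted p = 0.12). Adm, the vasodilator adrenomedullin, had changes of -0.07 ± 0.29 and -0.33 ± 0.29. The collagen prolyl hydroxylases differed in sign, with P4ha1 at -0.10 ± 0.11 and -0.23 ± 0.11 and P4ha2 at 0.51 ± 0.23 and 0.24 ± 0.23, none of them called. Over the 8 targets, 2 rose and 0 fell under anti-PD-1 and likewise in the combination, and the median log2 changes were 0.40 and 0.22. Of all genes, 4.18% rose and 4.08% fell under anti-PD-1, and 8.35% rose and 9.60% fell in the combination.

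Within the PB-020 group, 1 tumor stood higher than the others in the hypoxia targets. PB-020 tumor 2 held the highest value of its group for 7 of the 8 targets, among them Egln3 at 38.4 FPKM, Ankrd37 at 27.3, P4ha2 at 25.7 and Adm at 6.20. The median log2 change of the targets against CK was 0.19 with this tumor and -0.15 without it, and that of Egln3 went from 0.20 to -0.13. Its proliferation markers summed to 745.7 FPKM, against 598.6 and 555.4 in the other PB-020 tumors, and its erythroid markers to 1046 FPKM, against 490.2 and 449.4. Its neutrophil and muscle markers summed to 33.02 and 56.6 FPKM, against 10.1 and 19.4, and 71.1 and 51.0. The part of these differences was not tested.

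Hif1a (chr12:73901324-73947554), the gene of the oxygen-regulated subunit, was at 39.3, 38.7 and 45.2 FPKM in CK, 39.3, 47.0 and 43.0 in PB-020, 64.1, 47.8 and 53.6 in anti-PD-1, and 59.9, 51.2 and 51.3 in the combination. Anti-PD-1 and combination tumors all lay above CK and above PB-020. Its transcript rose by 0.45 ± 0.10 (adjusted p = 0.022) and 0.43 ± 0.10 (adjusted p = 0.015), and its change under PB-020 was 0.11 ± 0.10 (adjusted p = 0.93). The anti-PD-1 call was lost without CK tumor 1, CK tumor 2, anti-PD-1 tumor 1 or anti-PD-1 tumor 3 (adjusted p between 0.056 and 0.10), and the combination call without CK tumor 2 or combination tumor 1 (0.076 and 0.072). HIF-1α is controlled mainly through the stability of the protein, which these data do not measure.

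**Figure D3:**
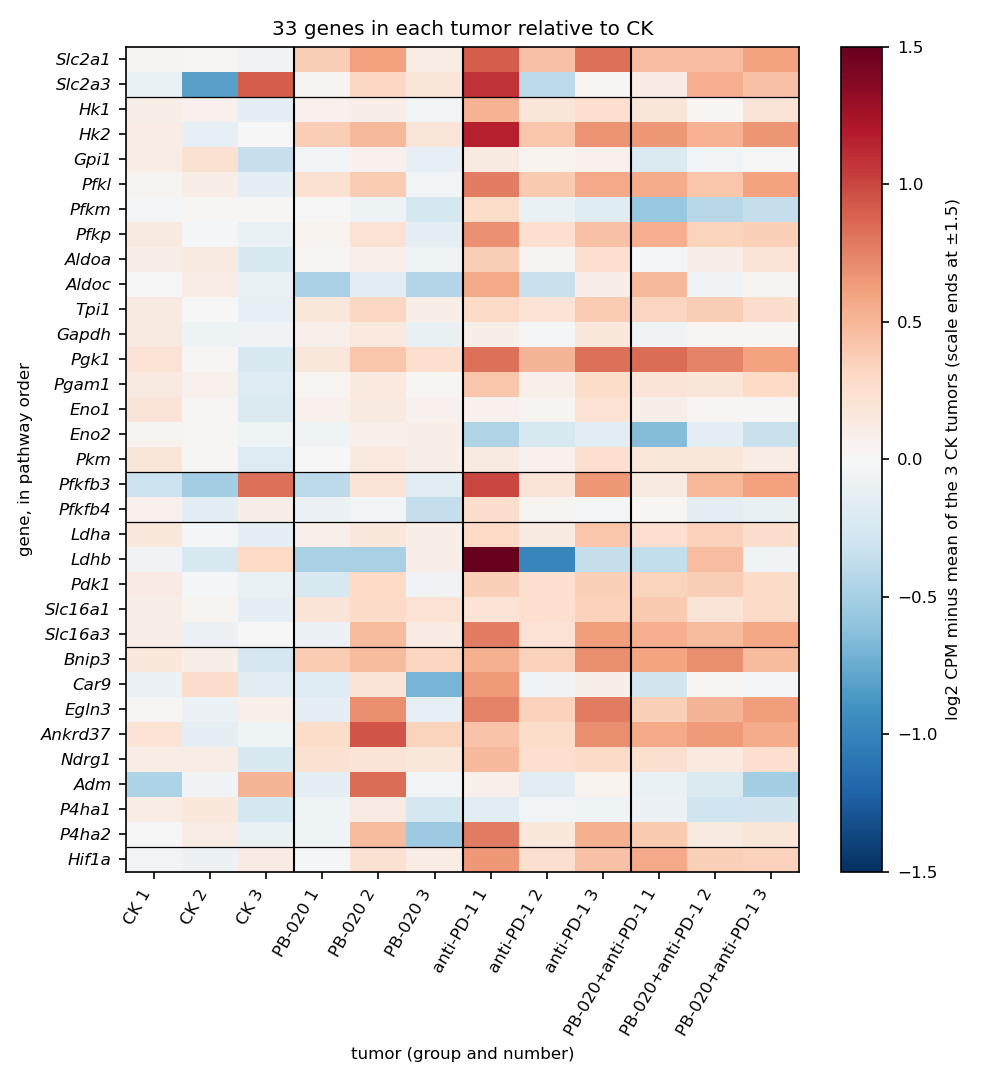
Each cell is log2 CPM of 1 gene in 1 tumor minus the mean of the 3 CK tumors, on a scale that ends at ±1.5, with lines between groups and between gene roles. Anti-PD-1 tumor 1 is dark for Ldhb and Hk2, CK tumor 3 for Pfkfb3, and PB-020 tumor 2 for Egln3 and Ankrd37.

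Of 60 further rows for genes of the same pathways, also chosen with earlier results of these data known, 52 were tested. Under anti-PD-1 3 of these rose and 6 fell, and in the combination 8 rose and 7 fell. Under PB-020 0 were called, as were 0% of all genes. There 4 had an unadjusted p under 0.05, all on the higher side, against 3.12% of all genes on that side. The called shares of the 52 were 17.3% under anti-PD-1 and 28.8% in the combination, against 8.26% and 17.9% of all genes in either direction. Among 18 tested other hypoxia targets, Ak4, a mitochondrial adenylate kinase, had mean levels of 5.72, 7.50, 11.4 and 12.02 FPKM in CK, PB-020, anti-PD-1 and the combination, and it rose by 1.003 ± 0.19 (adjusted p = 0.016) and 1.08 ± 0.19 (adjusted p = 0.0063). Bhlhe40, a transcriptional repressor, rose by 0.77 ± 0.11 and 0.43 ± 0.11. Loxl2, which crosslinks collagen and which fibroblasts also make, fell by 0.43 and by 0.68, and Selenbp1 fell by 0.62 and by 0.68. Higd1a and Fam162a, both mitochondrial, rose in the combination by 0.41 ± 0.12 and 0.47 ± 0.12, and Narf fell there by 0.34. Of the 18, 2 rose and 2 fell under anti-PD-1, where 4.18% of all genes rose and 4.08% fell, and 4 rose and 3 fell in the combination, where 8.35% rose and 9.60% fell.

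Around pyruvate, the kinase Pdk3, which inactivates pyruvate dehydrogenase, rose by 0.46 ± 0.10 (adjusted p = 0.019) under anti-PD-1 and by 0.50 ± 0.10 (adjusted p = 0.0068) in the combination. Its sister Pdk2 fell by 0.73 in the combination (adjusted p = 0.0080), and the phosphatase Pdp1, which reverses these kinases, fell by 0.40 under anti-PD-1 (adjusted p = 0.039). Pdha1, the catalytic subunit of pyruvate dehydrogenase, and Mpc1, the mitochondrial pyruvate carrier, rose in the combination by 0.29 ± 0.08 and 0.35 ± 0.11. Bpgm, which makes 2,3-bisphosphoglycerate and is abundant in red cells, fell by 0.42 and 0.48, beside lower erythroid markers, and Pfkfb2 fell by 0.34 and 0.40. Of 7 pentose phosphate genes, Rpe rose in the combination by 0.47 ± 0.10 (adjusted p = 0.0073). Under anti-PD-1 0 of the 7 were called, against 8.26% of all genes. There 1 had an unadjusted p under 0.05, a threshold at which no share of all genes was counted for anti-PD-1. Among oxygen sensors and HIF subunits, Egln2 fell by 0.28 under anti-PD-1 (adjusted p = 0.049) and Arnt, the partner of HIF-1α, fell by 0.28 in the combination (adjusted p = 0.032).

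The question of what PB-020 added to anti-PD-1 was put to the same genes. Between the combination and anti-PD-1, 0 of 33 were called, as were 0% of all genes tested, and 1 of 33 had an unadjusted p under 0.05, against 7.26% of all genes. That gene was Pfkm, at -0.46 ± 0.11 (unadjusted p = 0.0010, adjusted p = 0.66). DESeq2 and limma also called 0 of the 33, where DESeq2 called 1 of 13542 genes in all and limma 0. For Pgk1 the difference was 0.00, with a 95% interval of -0.26 to 0.27, for Slc2a1 it was -0.23 (-0.50 to 0.05), and for Hif1a -0.03 (-0.25 to 0.20). The median over the 33 genes was -0.07, and that over all genes -0.02. Between the combination and PB-020, 0 of 33 were called, against 3.35% of all genes, and 9 had an unadjusted p under 0.05, against 22.4%. DESeq2 called 3 there, against 8.35% of all genes, and limma 0, against 2.59% and 2.87%. Without CK tumor 3 and anti-PD-1 tumor 1 together edgeR called 5, against 10.9%, and without anti-PD-1 tumor 1 it called 4, against 9.28%. It called 2 without PB-020 tumor 2, against 2.89%, and 1 without CK tumor 3 or anti-PD-1 tumor 2, against 2.73% and 5.36%. The smallest p of the 33 genes there was that of Pgk1, with a difference of 0.45 ± 0.12 (adjusted p = 0.062), with no overlap of the groups.

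Whether the effects of both drugs added up was tested as the interaction, the change of the combination minus the changes of PB-020 and of anti-PD-1 on the log2 scale. Again 0 of 33 genes were called, as were 0% of all genes, by edgeR, DESeq2 and limma. At an unadjusted p under 0.05 there were 4, all negative, against 1.44% of all genes on that side. They were Slc2a1 at -0.61 ± 0.18, Hk2 at -0.52 ± 0.22, Pfkm at -0.35 ± 0.16 and Ndrg1 at -0.32 ± 0.13. Of the 33 values 31 were negative, with a median of -0.15, and without PB-020 tumor 2 this median was -0.07, as it was without CK tumor 3 and anti-PD-1 tumor 1 together. The median over all genes was -0.01 and the quartiles of all genes were -0.11 and 0.09. For the 8 hypoxia targets 8 were negative with a median of -0.32, and this median was -0.05 without PB-020 tumor 2 and -0.16 without CK tumor 3 and anti-PD-1 tumor 1. The same CK tumors enter every one of these values.

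Tumors of one group also differed among themselves, and glycolytic enzymes and hypoxia targets did so together for the most part. In the CK group the mean deviation of the 15 enzymes from their group means was 0.10, 0.04 and -0.14 in log2 CPM. For PB-020 it was -0.02, 0.11 and -0.09, for anti-PD-1 0.14, -0.15 and 0.02, and for the combination 0.00, -0.01 and 0.01. The 8 targets deviated by 0.00, 0.06 and -0.06 in CK, by -0.11, 0.35 and -0.25 in PB-020, by 0.12, -0.18 and 0.06 in anti-PD-1, and by 0.02, 0.01 and -0.03 in the combination. In CK, PB-020 and anti-PD-1, the tumor lowest in enzymes was also lowest in targets. In CK the highest tumors differed, tumor 1 for enzymes and tumor 2 for targets. In the combination, where deviations were small, tumor 3 was highest in enzymes and lowest in targets. Over the 120 pairs of 1 enzyme and 1 target, the median correlation of deviations across the 12 tumors was 0.46, and 46.7% of pairs exceeded 0.5. Among enzymes the median was 0.56 (105 pairs), among targets 0.45 (28 pairs), and among 1999000 pairs of genes taken at even steps through the table -0.003, with 11% above 0.5. These correlations are descriptions, since the points share libraries and 12 tumors leave few independent deviations.

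**Figure D4:**
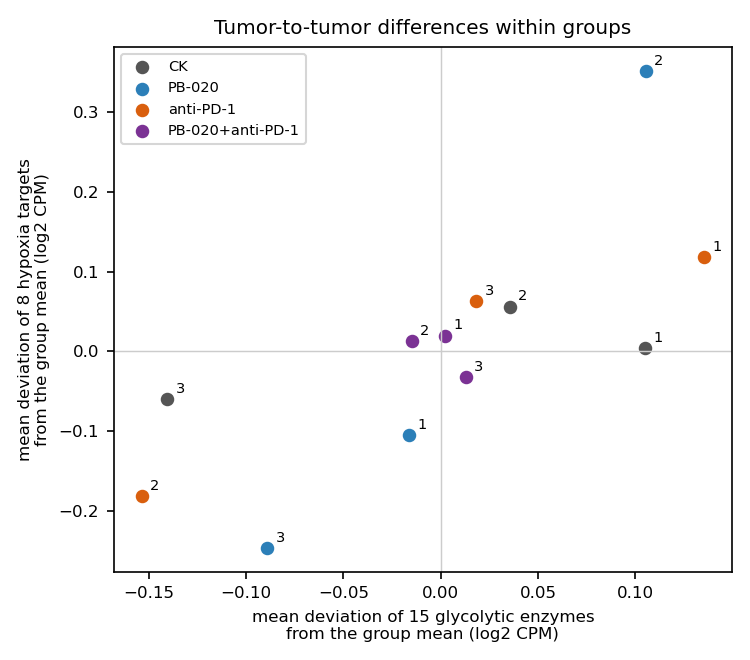
Mean deviation of 8 hypoxia targets against that of 15 glycolytic enzymes, both in log2 CPM from the group mean, with 1 point per tumor and its number beside it. PB-020 tumor 2 lies highest at 0.35 and PB-020 tumor 3 lowest at -0.25, while the combination tumors lie near 0 on both axes.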

How the data were processed

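RNA from 12 MC38 tumors was sequenced as read pairs on an Illumina instrument, and the methods name alignment with Bowtie2 and quantification with RSEM. The submitters' processing notes name HISAT, Bowtie2 and GRCm38.p6. The annotation and the tool versions are not given in the sources used here. The deposited expected counts were made by the authors with RSEM, are not normalized, and are whole in 91% of values. The FPKM values deposited by the authors divide these by transcript length and library total, so levels of different genes were compared in FPKM. The deposited TPM values were read only to check their sums. The authors' group averages were not used.

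Expected counts were rounded to whole numbers and analysed with edgeR 4.0.16 in R 4.3.3. The filter filterByExpr with a minimum count of 10 kept 13563 genes. After TMM scaling, all 12 tumors entered 1 robust quasi-likelihood model with 4 group means. Tests were two-sided, p values were adjusted by Benjamini-Hochberg over all genes tested, and log2 CPM used a prior count of 2. The calculation was tested on simulated counts. Values per tumor are printed for members called against CK and for Slc2a1, Hk2, Ldha, Pgk1, Hif1a, Car9, Bnip3 and Egln3, with the other members by group, except where a tumor that stood apart is described. Genes outside the 33 are named when called against CK. The members, the marker lists and the lists of further pathway genes were chosen with earlier results of these data known. Gene positions and promoter windows are those of RefSeq on GRCm38.p6, to which 18091 gene numbers matched.

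Alternatives were DESeq2 1.42.0, limma 3.58.1 on log2(FPKM + 1) and log2(FPKM + 0.1), dropping the filter or making it strict, scaling to library size alone, fitting only the groups compared, blocking on the replicate number, a fold over 1.5 with an unadjusted p under 0.05, and each tumor left out in turn. Leaving out CK tumor 3 and anti-PD-1 tumor 1 together was added after seeing the data. Labels and sources do not say whether the tumors came from separate cages or batches, so p values measure the spread between these tumors.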

Additional observations from a re-analysis of the deposited data

Results flagged for a closer look

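Ndrg1 was singled out because its groups did not overlap in log2 CPM, with PB-020 above CK but the combination below anti-PD-1. Opposite signs alone were not particular to Ndrg1. The change under PB-020 and the difference between combination and anti-PD-1 were 0.38 and -0.23 for Slc2a1, and 0.35 and -0.17 for Hk2. On the log2 CPM scale the CK tumors were at 9.13, 9.13 and 8.79 and the PB-020 tumors at 9.25, 9.21 and 9.19, all above CK. The anti-PD-1 tumors were at 9.50, 9.27 and 9.30 and the combination tumors at 9.26, 9.17 and 9.27, below anti-PD-1 only by a margin far smaller than the spread within either group. In FPKM the groups overlapped, with combination tumor 3 at 227.0 above anti-PD-1 tumor 2 at 224.2. The interaction was -0.32 ± 0.13 (log2, SE; unadjusted p = 0.034), and its adjusted p was 1.0, so the difference did not pass the test over all genes. The lowest CK value belongs to the tumor with neutrophil transcripts and the highest anti-PD-1 value to the tumor with muscle transcripts, and their part in the value was not tested.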

How the results depend on the processing

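The 11 genes called under anti-PD-1 became 7 with limma on log2(FPKM + 1) or log2(FPKM + 0.1), 0 when only the groups compared were fitted, 3 without CK tumor 3 and anti-PD-1 tumor 1 together, 4 by a fold over 1.5 with an unadjusted p under 0.05, and 2 to 13 when tumors were left out in turn. The share of all genes called moved as well, from 0.0226% with only the groups compared to 13.8% without anti-PD-1 tumor 2. For the 12 in the combination the fold rule gave 3 and leaving out tumors 3 to 14. The 14 came without CK tumor 1, where 13.1% of all genes were called. Without CK tumor 2 the count was 3, against 6.28% of all genes. Over these fits the share of all genes ran from 6.28% to 24.4%, the highest without anti-PD-1 tumor 1. Between the combination and PB-020, 0 became 3 with DESeq2, 4 with only the groups compared, 5 without both tumors, and 0 to 4 when tumors were left out in turn. The shares of all genes in these fits were 8.35%, 11.6%, 10.9% and 0% to 9.28%. For the interaction the fold rule gave 1. No share of all genes was counted under the fold rule in any comparison. Beside these and the replicate block, no alternative moved a count by over 1.5 times. Median log2 changes also moved. Leaving out tumors gave -0.145 to 0.279 for hypoxia targets under PB-020 and -0.407 to -0.0451 for their interaction, and -0.210 to -0.0664 for the interaction of all 33 genes. Without CK tumor 3 and anti-PD-1 tumor 1 together, values were 0.066 for enzymes and 0.252 for targets under anti-PD-1, and -0.163 for the interaction of targets. The median correlation of enzymes with targets ran from 0.382 to 0.505 when tumors were left out. Uncalled changes that turned direction were Egln3 under PB-020 without PB-020 tumor 2 (-0.134; up to 0.337 leaving out others), Car9 under anti-PD-1 without both tumors (-0.0756), and Car9 in the combination without CK tumor 2 (0.0436; down to -0.177 leaving out others). Of the 23 called changes, 23 were kept by DESeq2 and by the strict filter, 20 by library size alone and by no filter, 19 by each limma fit and 12 by only the groups compared. The cause of these shifts was not tested.

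Same-numbered tumors mostly did not deviate together, with correlations of -0.21 to 0.289 and 2 of 18 pairs above 0.1. Of the 12 tumors, 2 correlated best with their own number. Deviations from means of 3 tumors cannot settle whether the numbers follow a cage or batch, so no conclusion on pairing is drawn. With the replicate block 7 genes were called under anti-PD-1, against 6.41% of all genes, and 17 of the 23 called changes were kept.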
